A study of Mus musculus with 10 samples.

Results

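The delayed rectifier potassium channel subunits are a set of 7 genes, and each was found by its symbol in the platform's annotation. All 7 were measured, out of 16504 named genes, and each by 1 feature of the array. Of these, 4 encode pore subunits, Kcnq1, Kcnh2, Kcna5 and Kcna2, and the other 3 encode small accessory subunits, Kcne1, Kcne2 and Kcne3. Delayed rectifier channels open on depolarisation and let potassium leave the cell, which brings the cardiac action potential to its end. Kcnq1 with Kcne1 carries the slow component and Kcnh2 the rapid one. In the adult mouse ventricle both are minor, and much of the repolarising current runs through Kcna5 (Kv1.5) and the transient outward channels.

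The RNA came from mouse left ventricles, cut into a lateral and a septal piece. The dyssynchronous group held 4 hearts, numbered 1, 3, 4 and 5, kept separate, from mice in which the study's design ties dyssynchrony (loss of coordinated contraction) to an implanted pacemaker. Its comparator was 1 control pool, in which lateral and septal RNA of synchronous mice had each been combined, so that the spread between control animals is not in the data. Both walls of a heart, or of the pool, shared a 2-colour array, and each such pair was hybridised to 2 arrays with the dyes exchanged, which gave 10 arrays. The labels do not state strain, age, pacing site or how many mice were pooled.

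Every value below is a log2 ratio of lateral over septal wall, so a positive value is higher in the lateral piece, and it says nothing of a gene's level. The direction and the log base are likely rather than stated. The value of a heart is the mean of its 2 arrays, and the number of arrays limits the precision. Because a wall is a mixture of cell types, fewer cells of a type and less RNA per cell cannot be told apart. With ratios alone the tissue cannot be checked for absent markers.

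Kcne1 (minK), which slows the opening of Kcnq1 channels, was the member on 1 side in every heart, and the side was the septal one. Its ratio was -0.55 ± 0.27 (SD, n = 4 hearts), 1.46-fold higher in the septal wall, and -0.56 in the control pool, or 1.48-fold. The other 6 genes lay on both sides of 0 among the hearts. Kcnq1, Kcnh2 and Kcna5 stayed close to 0, while Kcne2, Kcne3 and Kcna2 scattered widely. No member passed the test across all genes in either comparison.

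By array, Kcne1 stood at -0.70 and -0.82 in heart 1, at 0.068 and -0.74 in heart 3, at -0.65 and -0.97 in heart 4, and at -0.18 and -0.41 in heart 5, with the array carrying lateral RNA in Cy5 first. In the control pool the same order gave -0.50 and -0.62. Of the 10 arrays 9 were thus on the septal side, the exception being 1 array of heart 3 near 0. Among all genes 1.53% were septal on at least 9 of 10 arrays, a limit set after these values were seen. The heart means were -0.76, -0.33, -0.81 and -0.29 in hearts 1, 3, 4 and 5, so the pool's -0.56 fell between the lower and the higher pair of hearts.

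**Figure D1:**
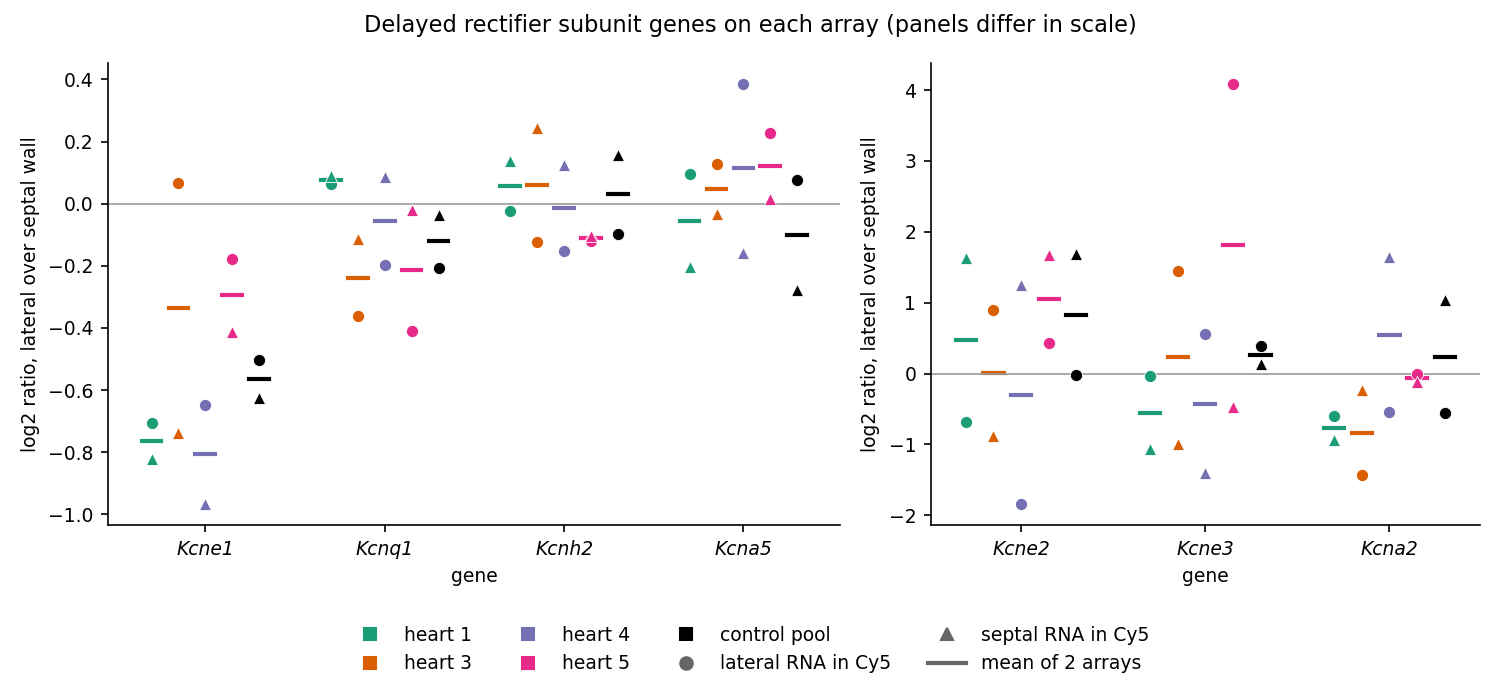
Log2 ratio of lateral over septal wall (vertical axis) of each gene on each of the 10 arrays; circles have lateral RNA in Cy5, triangles septal RNA in Cy5, bars are the mean of both, colours are the 4 hearts with the control pool in black to their right, and the panels have different scales. Kcne1 lies below 0 on 9 arrays, while Kcne3 reaches 4.09 on 1 array of heart 5.

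Expression was first compared between the 2 walls of the dyssynchronous hearts. In limma's moderated test of the 4 hearts against 0, adjusted by Benjamini-Hochberg over 16504 genes, 0 of the 7 members passed, against a background of 0% of all genes, with 934 genes and 1 member, Kcne1, at an unadjusted p under 0.05. The adjusted p of Kcne1 was 0.797, in limma with dye swaps averaged, and it ranged from 0.123 to 0.866 over the alternatives. The 0.123 came from a limma fit of single arrays, in which the 2 arrays of a heart counted much as separate replicates. Its 95% interval of -0.87 to -0.23 is that of a single gene and is not adjusted for the number of genes. Ordered by p, Kcne1 was number 139 of 16504. A septal ratio in all 4 hearts was found for 7.63% of all genes and for 1 of the 7 members. A lateral ratio in all 4 hearts was found for 7.8% of all genes and for 0 members. Without heart 1, and likewise without heart 4, 3 members lay on 1 side in the remaining hearts, and 0 did on all 8 heart arrays.

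Among the pore subunits, Kcnq1 (KvLQT1), the pore of the slow delayed rectifier, had heart means of 0.076, -0.24, -0.055 and -0.21 in hearts 1, 3, 4 and 5, against -0.12 in the pool. Heart 1 lay on the lateral side on both arrays (0.064 and 0.088) and the other 3 hearts on the septal side. The mean was -0.11 ± 0.15 (n = 4), with an adjusted p of 0.804 in limma. Its interval runs from 1.24-fold higher in the septal wall to 1.07-fold higher in the lateral wall.

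Kcnh2 (ERG1), the pore of the rapid delayed rectifier, had heart means of 0.058, 0.060, -0.013 and -0.11, against 0.030 in the pool. No array was farther from 0 than 0.24, and the mean of -0.0020 ± 0.081 (n = 4) had an interval that reached 1.11-fold in either direction (adjusted p 0.999 in limma). This was the smallest absolute mean of the 7 genes, below all but 1.58% of genes.

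Kcna5 (Kv1.5), which carries a rapidly activating delayed rectifier of mouse ventricle, had heart means of -0.055, 0.047, 0.11 and 0.12, against -0.10 in the pool. The 3 lateral hearts and the septal heart 1 averaged 0.057 ± 0.081 (n = 4), and the interval reached from 1.07-fold higher in the septal wall to 1.16-fold higher in the lateral wall (adjusted p 0.831 in limma). The SD between hearts of Kcnh2 and Kcna5 was at percentile 16.2 and 16.3 of all genes, whose median SD was 0.23.

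Kcna2 (Kv1.2), a channel best known from axons, had heart means of -0.76, -0.83, 0.55 and -0.059, against 0.24 in the pool. The arrays of heart 4 disagreed, at -0.54 with lateral RNA in Cy5 and 1.64 with septal RNA in Cy5, as did those of the pool at -0.56 and 1.04. One array of heart 5 held an exact 0, whose meaning is not stated. With a mean of -0.28 ± 0.65 (n = 4), the interval from -0.995 to 0.44 leaves room for close to 2-fold differences toward the septum (1.99-fold at its end; adjusted p 0.827 in limma). The mean was -0.091 without heart 3, -0.11 without heart 1 and -0.55 without heart 4.

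Of the accessory subunits other than Kcne1, Kcne2 (MiRP1), described with Kcnh2 and in mouse ventricle also with Kcna5, had heart means of 0.48, 0.0050, -0.30 and 1.05, against 0.83 in the pool. Its arrays lay as far apart as -1.84 and 1.25 in heart 4, and only in heart 5 were both arrays of a pair on the same side (0.43 and 1.67). The mean was 0.31 ± 0.59 (n = 4), with an adjusted p of 0.816 in limma and an interval from -0.34 to 0.96. The mean was 0.061 without heart 5 and 0.51 without heart 4.

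Kcne3 (MiRP2), best known as a partner of Kcnq1 in epithelia, had heart means of -0.55, 0.23, -0.43 and 1.81, against 0.26 in the pool. Its mean of 0.26 ± 1.09 (n = 4; adjusted p 0.893 in limma) rested on 1 array of heart 5, which stood at 4.09, or 17.0-fold higher in the lateral wall, while the other array of that heart stood at -0.47. Without heart 5 the mean was -0.25. Over the 7 remaining heart arrays the mean was -0.28. The SD between hearts was above that of 99.4% of all genes.

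**Figure D2:**
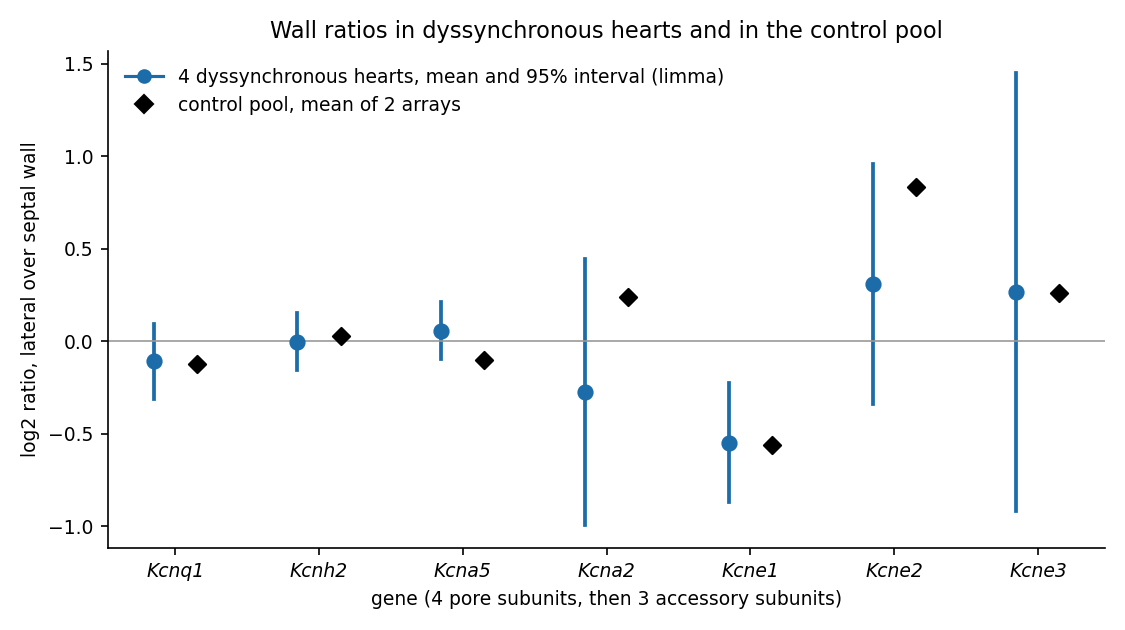
Mean log2 ratio of lateral over septal wall in the 4 dyssynchronous hearts (circles, with 95% intervals from limma, not adjusted for the number of genes) and, to their right, in the control pool (diamonds, 1 pair without replicate). The interval of Kcne1, -0.87 to -0.23, is the one that does not reach 0, and the pool value of -0.56 lies inside it.

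The second comparison asked whether the wall ratio in dyssynchronous hearts differs from that in synchronous mice. Here limma called 0 of the 7 members, against 0% of all genes, with 783 genes and 0 members at an unadjusted p under 0.05, and the pool was assumed to vary like 1 heart. For Kcne1 the mean of the hearts lay 0.013 from the pool, with an interval of -0.70 to 0.73. For Kcnq1 the difference was 0.014, with an interval of -0.44 to 0.47. The septal ratio of Kcne1 was therefore as large in the pool as in the hearts, within an interval that still holds differences of about the size of the ratio itself.

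Differences between hearts and pool were also small for Kcnh2, at -0.032 with an interval of -0.37 to 0.31, and for Kcna5, at 0.16 with an interval of -0.18 to 0.4996. Larger ones, with wide intervals, were found for Kcne2 (-0.53, from -1.98 to 0.93) and Kcna2 (-0.52, from -2.13 to 1.09). Kcne3 differed by 0.0051, but its interval of -2.64 to 2.65 excludes little. The adjusted p was 1 in limma for all 7 members. On both arrays of the pool, Kcnq1 and Kcne1 were septal, as were 17% of all genes, and Kcne3 was lateral, as were 18.7%.

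The difference between partner subunits was taken within each heart, as 1 ratio minus another. Kcne1 lay below Kcnq1 in 4 of 4 hearts, by -0.84, -0.096, -0.75 and -0.081 in hearts 1, 3, 4 and 5, against -0.44 in the pool. The mean was -0.44 ± 0.41 (n = 4), and the two-sided exact sign-flip permutation test gave p = 0.13, the smallest that 4 hearts allow. In hearts 1 and 4 the gap was wide and in hearts 3 and 5 it was under 0.1. The mean was -0.74 on arrays with septal RNA in Cy5 (exact permutation p 0.13) and -0.14 on arrays with lateral RNA in Cy5 (exact permutation p 0.625), where hearts 3 and 5 were at 0.43 and 0.23. Kcne2 minus Kcnh2 was 0.42, -0.055, -0.28 and 1.16, against 0.80 in the pool, with a mean of 0.31 ± 0.64 and an exact p of 0.5. That mean was 0.027 without heart 5 and 0.51 without heart 4.

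How well the dye-swapped arrays of a pair agree sets how far each ratio can be read. Kcnq1 and Kcne1 were on the same side on both arrays in 4 of the 5 pairs, Kcne3 and Kcna2 in 2, and Kcne2, Kcnh2 and Kcna5 in 1, where the median gene had 2. The median gap between the arrays of a pair was 0.24 for Kcne1, 0.25 for both Kcnq1 and Kcnh2 and 0.30 for Kcna5, below the 0.40 of the median gene. For Kcna2, Kcne2 and Kcne3 it was 1.199, 1.78 and 1.96. Kcnh2 and Kcna5 thus changed side between arrays through small gaps around 0, and the other 3 genes through large ones.

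The mean of the values as deposited, Cy5 over Cy3, gives the dye effect. It would be the wall effect, of unknown side, if the depositors had already turned the ratios. Among the cell type markers, Myl7 and Dkk3 were septal, and Cnn1 and Lmod1 lateral, on all 10 turned arrays. Their deposited values thus changed sign with each dye exchange, which is how ratios that were not turned behave. For Kcne1 and the other members the dye effect is given as a value. The dye effect was 0.18 for Kcne1 in the hearts, which is 0.34 times the size of its wall effect. In the other 6 members, as in 66.6% of all genes, the dye effect was the larger (in 3 members without heart 4). Kcne3 had 1.25, above 99.6% of all genes in size, and Cy5 was the brighter channel on 7 of 8 heart arrays. The values were -0.61 for Kcne2, -0.37 for Kcna2, 0.15 for Kcna5, -0.12 for Kcnq1 and -0.10 for Kcnh2. Read as already turned, which those marker genes do not follow, Kcne1 would lose its rank among the members (adjusted p 0.292 in limma). Kcne3 would then have the largest ratio.

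**Figure D3:**
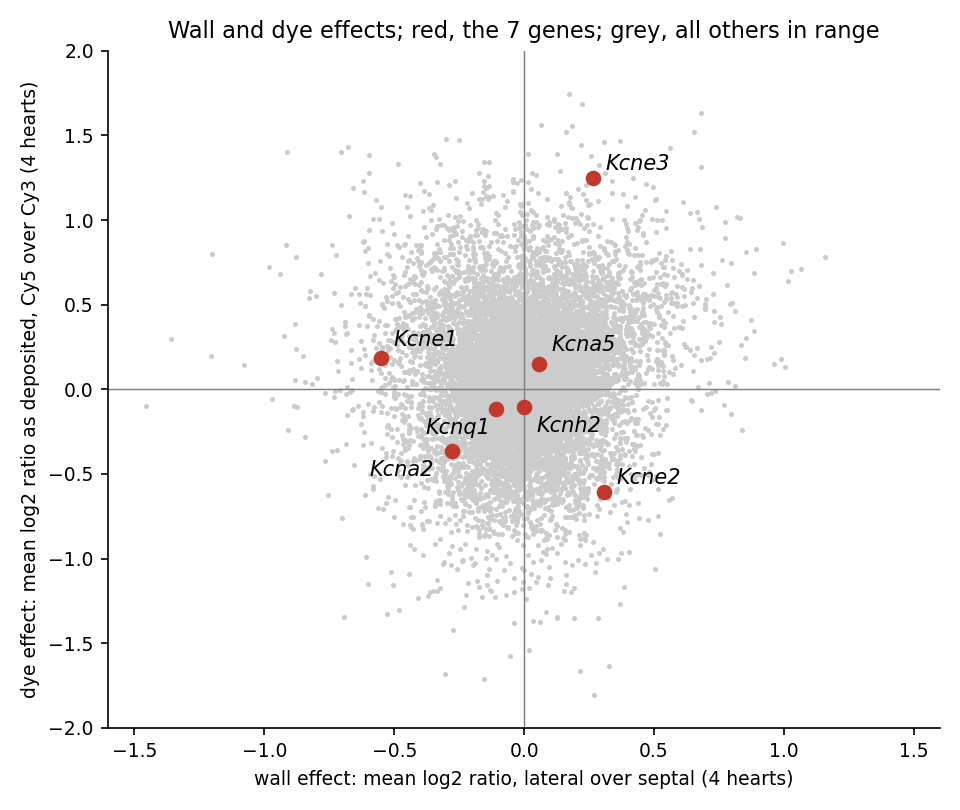
Wall effect (horizontal axis, mean log2 ratio of lateral over septal wall in 4 hearts) against dye effect (vertical axis, mean log2 ratio of Cy5 over Cy3 as deposited) for the 7 genes in red and for other genes within the axes in grey. Kcne1 lies far to the left with a dye effect of 0.18, and Kcne3 lies high with a dye effect of 1.25.

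Markers of other cell types were set beside the members, since either wall piece could hold more of a tissue. Of 9 conduction system markers measured, 4 were septal in all 4 hearts and 0 lateral, with a list median of -0.31 (range of heart medians -0.33 to -0.11) against -0.018 in the pool. Over all genes, 7.63% were septal and 7.8% lateral in all 4 hearts. Cacna1g, a T-type calcium channel, was at -0.63 ± 0.28 (pool -0.28), Pcp4, a calmodulin-binding protein of Purkinje cells, at -0.39 ± 0.13 (pool -0.84), and the transcription factor Etv1 at -0.44 ± 0.28 (pool 0.0066). Hcn4 averaged -0.46, Cntn2 -0.31, Irx3 -0.029 and Tbx3, with exact zeros on 8 arrays, -0.027. Gja5 (0.15 ± 0.22, pool -0.018) and Tbx5 (0.27 ± 0.63, pool 0.49) had positive means. Kcne1 is itself marked in the conduction system in mice that carry a reporter in its locus. The part of conduction tissue in its ratio was not tested.

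Of 5 atrial markers, 3 were septal in all hearts (Myl7, Myl4 and Dkk3), with a list median of -2.14 against -0.12 in the pool. Nppa averaged -0.87 ± 1.15 with heart 3 lateral at 0.20. Sln averaged -0.044 ± 0.53 with 2 hearts lateral and exact zeros on 5 arrays. Myl7, the atrial regulatory light chain, was 23.3-fold higher septally in the hearts and 1.09-fold in the pool, where Kcne1 had 1.46-fold and 1.48-fold. By heart, Myl7 was at -5.18, -3.36, -3.53 and -6.10 in hearts 1, 3, 4 and 5. The part of atrial tissue in the Kcne1 ratio was not tested. Ventricular muscle markers had a median of -0.037 (pool -0.17). Mybpc3 (-0.16 ± 0.038) and Myl2 (-0.14 ± 0.070) were septal on all 10 arrays. Ryr2 was at 0.20 ± 0.24 with 3 of 4 hearts lateral (pool 0.15). Myh6 and Actc1 averaged -0.089 and -0.074, and Tnni3, Tnnt2 and Myl3 averaged 0.015, 0.0055 and -0.00039.

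Of 6 smooth muscle markers, 4 were lateral in all hearts (median 0.27, pool 0.21): Lmod1 (1.00 ± 0.43, pool 1.06), Cnn1 (0.85 ± 0.26, pool 0.78), Myh11 (0.28 ± 0.20, pool 0.32) and Tagln (0.25 ± 0.16, pool 0.092). Acta2 (-0.0056 ± 0.12, pool -0.27) and Smtn (0.043 ± 0.30, pool -0.038) of the same list lay on both sides of 0 among the hearts. Kcna5, also a vascular smooth muscle channel, was at 0.057 ± 0.081 (pool -0.10). Nerve and Schwann cell markers, relevant to Kcna2, had a median of -0.086 (pool 0.060), with 0 of 6 on 1 side in all hearts. In heart 5, where Kcne3 was highest, the nerve list had a median of -0.030 and the endothelial list of -0.016, with single markers, Sox10 at 1.21 and Pecam1 at 1.32, above the rest of their lists. The medians of the endothelial, fibroblast, epicardial and macrophage lists were -0.078, -0.16, -0.18 and 0.24 in the hearts, against 0.030, -0.060, 0.14 and 0.089 in the pool. None of these markers passed limma, and their part in the members' ratios was not tested.

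Related channel genes gave a frame for the members. Of 25 other voltage-gated potassium channel subunit genes measured, 0 passed limma in either comparison, with 2 and 1 of them at an unadjusted p under 0.05 in the first and the second. In all 4 hearts 1 was lateral and 2 were septal, and the median was -0.0061 in the hearts and 0 in the pool. Over all genes the medians were 0.0026 and 0, and over the 7 members -0.0020 and 0.030. In 16 of these 25 genes at least 1 array held an exact 0, as in 1 of the 7 members.

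The Shaker relative on the lateral side in all hearts was Kcna1 (Kv1.1), an axonal channel, at 0.81, 0.16, 0.75 and 0.35, against 0.74 in the pool. Its mean of 0.52 ± 0.31 had an adjusted p of 0.797 in limma, and 7 of the 10 arrays, those of the pool included, were lateral. Kcna6 was at -0.24 ± 0.33 and Kcna7 at -0.073 ± 0.071. Kcna7 and the Shaw channel gene Kcnc4 were the septal ones, with all 8 heart means between -0.16 and -0.0020.

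Of the closest relatives of Kcnq1 and Kcne1, Kcne4, which in other cells inhibits Kcnq1 channels, was at 0.38 ± 0.496 with 3 of 4 hearts lateral, against -0.30 in the pool. Kcnq5 was at -0.12 ± 0.38 (pool 0.57) and Kcne1l, an older symbol of Kcne5, at -0.17 ± 0.42 (pool 0). Among Kcnh2 relatives, Kcnh6 was at 0.19 ± 0.18 with 3 hearts lateral (pool -0.11), Kcnh5 at 0.16 ± 0.40 (pool 0.46) and Kcnh7 at -0.068 ± 0.10 (pool 0.49), with exact zeros on 6 arrays. The lowest adjusted p among them was 0.797 in limma.

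The silent subunit genes Kcns3, Kcnf1 and Kcnv1, which modify Kcnb channels, were at 0.37 ± 0.28, 0.35 ± 0.32 and -0.21 ± 0.17, each with exact zeros on 6 of 10 arrays and a pool ratio of 0. The cytoplasmic beta subunit genes Kcnab1, Kcnab2 and Kcnab3, whose proteins bind Shaker channels such as Kcna5 and Kcna2, were at -0.21 ± 0.25, 0.11 ± 0.33 and 0.17 ± 0.25, with exact zeros on 7, 6 and 3 arrays.

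**Figure D4:**
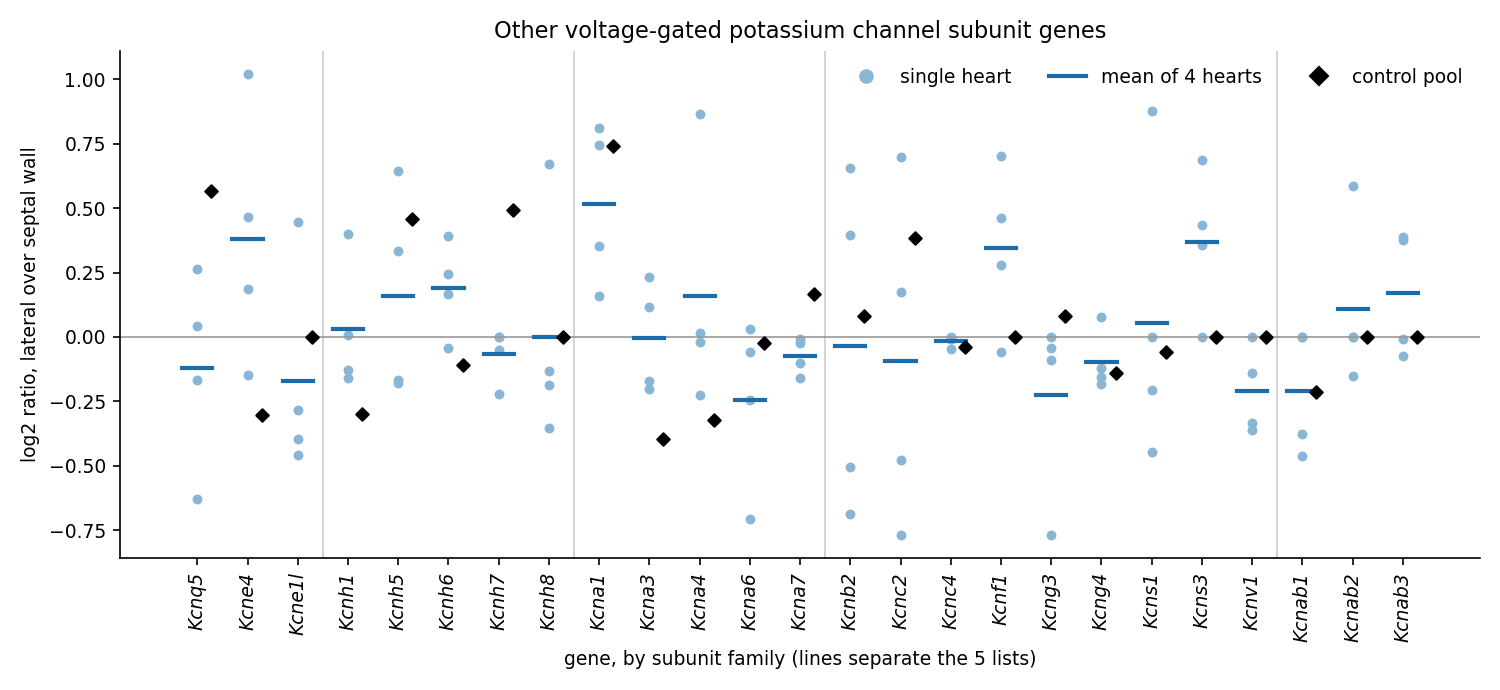
Log2 ratio of lateral over septal wall (vertical axis) of 25 other potassium channel subunit genes in 5 lists; dots are the 4 hearts, bars their mean and black diamonds, to the right, the control pool. Kcna1, at 0.52, has the highest mean, and points at exactly 0 come from arrays that held an exact 0.

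Partner and regulator genes of the members, 16 in number, gave 4 lateral and 1 septal in all hearts, where all genes gave 7.8% and 7.63%. Their median was 0.028 in the hearts and -0.087 in the pool, and 0 passed limma. Calm2, a calmodulin gene whose protein binds Kcnq1, was at 0.12 ± 0.070 (pool -0.055). Sgk1, a kinase that raises Kcnq1 and Kcne1 currents in expression systems, was at 0.11 ± 0.058 and lateral on 9 of 10 arrays (pool -0.011). Prkaca, a catalytic subunit of protein kinase A, which phosphorylates Kcnq1, was at 0.29 ± 0.28 (pool -0.28). Prkar2a, a regulatory subunit of that kinase and the septal gene of the list, was at -0.30 ± 0.34 (pool -0.12). Akap9 (yotiao), which anchors that kinase at Kcnq1, was at 0.063 ± 0.029, and Tcap, which binds Kcne1 at the Z-disc, at 0.38 ± 0.54 with heart 3 highest at 1.16.

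The mean ratios of Kcne2 and Kcne1 had opposite signs, but the interval of Kcne2, -0.34 to 0.96, held both signs. By position in the RefSeq annotation, Kcne2 and Kcne1 lie near each other on 1 chromosome with 3 protein-coding genes between them. Of the 3, Smim11 was at -0.025 ± 0.049 and Fam243 at 0.15 ± 0.60. The gene on the far side of Kcne1, Rcan1, a calcineurin regulator, was at -0.53 ± 0.70 (pool -0.40), with a wider spread than Kcne1. Kcna5 is followed by Kcna1 and Kcna6, and Kcna2 lies between Kcna3 (-0.0061 ± 0.21) and Kcna10.

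Over the 10 arrays, the genes whose ratios were closest to those of Kcne1, by root mean square difference, were Itih5 at 0.24, Serpinf1 at 0.33 and Myot at 0.34. Itih5, an inter-alpha-trypsin inhibitor heavy chain gene, averaged -0.43 ± 0.25 (pool -0.22). Serpinf1, a secreted serpin, averaged -0.50 ± 0.29 (pool -0.18), and Myot, the Z-disc protein myotilin, -0.59 ± 0.15 (pool -0.24). All 3 were septal on at least 9 arrays, and in the pool each was nearer to 0 than Kcne1. The likeness describes these arrays, which the genes share.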

How the data were processed

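Lateral and septal RNA of 4 dyssynchronous mouse hearts and 1 control pool were measured on 10 arrays of 2 colours. Per the submitters' processing notes, Agilent Feature Extraction 7.5 was used. The deposited values were taken as log10 ratios of Cy5 over Cy3, from their sign, their median of 0 on every array and that software's usual output. The labels state neither log base nor direction, and the dye normalization and filters are not stated there. Channel intensities were not analysed here, so signal over background, dim features and other normalizations could not be examined.

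Values were multiplied by 3.32 and signed by the Cy5 label. Of 22393 features, 18218 had 1 symbol in the platform annotation (16 had several, 4159 none), and features of a gene were averaged to 16504 genes. All 7 members' Entrez numbers carried the same symbol in the RefSeq table (GRCm38.p6), which served only for names and neighbours. Values of -2 occurred at no named feature. Exact zeros (6.52% to 13.1% of named features per array) were kept. The spread of an array, as median absolute deviation, was 0.22 to 0.47.

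After averaging dye swaps, limma 3.58.1 (R 4.3.3) was run over all genes on 4 hearts and 1 pool, with Benjamini-Hochberg adjustment and a threshold of 0.05, two-sided. Partner subunits were compared with an exact sign-flip permutation test (SciPy 1.17.1). The fit was run on simulated data whose planted differences were larger than the mean ratio of any member. Its power for differences of the members' size was not examined. The named genes are the members, of each list the 3 (or fewer) lowest in p and the 3 genes nearest to a member with 1 sign in all hearts. Other genes (Myh11, Akap9, Tcap, Prkar2a, Kcnc4, Kcna3, further cell type markers and the neighbours) were picked with their values in view. The members, gene lists and tests were chosen with earlier results of these data known. The p-values measure the spread between these 4 hearts, and no batch is labelled. In limma, p-values and intervals use that spread moderated toward a spread shared by all genes (1.5 prior degrees of freedom).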

Additional observations from a re-analysis of the deposited data

Results flagged for a closer look

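Sox10, a Schwann cell transcription factor among the nerve markers, stood at 1.21 in heart 5, while the other 3 hearts lay between -0.10 and -0.020. A heart this far from the others arises by chance in about 1 in 20 sets of 4. The 55 genes examined were the members, the 3 lowest in p of each list and the 3 genes nearest to Kcne1. Of these, 1 had such a heart, where 2.75 are expected. Genes named here outside that rule, such as Akap9 and Kcnc4, were not examined. None of the 7 channel subunits had one.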

How the results depend on the processing

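No member passed the threshold under any alternative run. Kcne1 stayed septal in the hearts, between -0.73 and -0.37 over 16 settings, and read as already turned it was 0.18 with an unknown side. Fits of the single arrays, with each dye-swap pair as a block, called 20 genes between the walls with a dye term and 23 without, and 3 between hearts and pool with either, where averaged pairs gave 0; an ordinary test without moderation called 1 between hearts and pool. On arrays with septal RNA in Cy5 alone, the wall ratio reversed to 0.010 for Kcnq1, 0.10 for Kcnh2, -0.095 for Kcna5, 0.090 for Kcna2 and -0.98 for Kcne3, and the difference between hearts and pool to -0.11 for Kcne1 and -1.12 for Kcne3. On arrays with lateral RNA in Cy5 alone, Kcne2 was -0.30, Kcne2 minus Kcnh2 was -0.20 and the difference of Kcnq1 from the pool was -0.020. With arrays scaled to a common spread, Kcnh2 was 0.0032 and the difference of Kcne3 from the pool -0.082. Leaving out 1 heart gave -0.25 to 0.54 for Kcne3 and -0.023 to 0.035 for Kcnh2, and differences from the pool of -0.048 to 0.057 for Kcnq1, -0.072 to 0.099 for Kcne1, -0.51 to 0.28 for Kcne3 and -0.053 to 0.0042 for Kcnh2. It gave 1 to 3 members on 1 side in all hearts and 3 to 6 with the larger dye effect; no member was on 1 side on all 8 heart arrays (0). The causes were not tested. Wall ratios without 1 heart were -0.63 to -0.46 for Kcne1, -0.17 to -0.064 for Kcnq1, 0.035 to 0.094 for Kcna5, 0.061 to 0.51 for Kcne2 and -0.55 to -0.091 for Kcna2. Read as already turned, with the side unknown, the sign also changed for the wall ratio of Kcne2 (-0.61) and for the difference from the pool of Kcnq1 (-0.034), Kcne2 (0.25), Kcnh2 (0.024), Kcna5 (-0.025) and Kcna2 (0.44). The markers Myl7, Dkk3, Cnn1 and Lmod1 did not follow that reading, since their deposited values changed sign with each dye exchange. Outside that reading, 195 other member values kept their direction and side of the threshold. Kcna2 has no value where genes with exact zeros are dropped. Background correction, loess, a filter on dim probes and a slide block were not run, because channel intensities were not analysed here. The walls are paired on every array by design. No paired analysis was possible because, between hearts and pool, only 1 pool stands against 4 hearts.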
